A study of Mus musculus with 5 samples.

Results

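The genes described here are 40 genes of mitosis and the mitotic spindle, taken as a list of symbols from 27726 genes common to the 5 libraries. All 40 were found in each library. They were followed in single-cell RNA of type 2 innate lymphoid cells (ILC2s), tissue-resident lymphocytes that answer alarm signals of the lung lining with type 2 cytokines, and each library pooled the cells of 5 wild-type C57BL/6 mice. The naïve library came from mice without a tumour. The 2 ta-non-activated libraries were freshly isolated at week 2 and week 3 from mice that carried a TC1 lung tumour under the skin of the flank, and the 2 ta-activated libraries held cells of such mice, from the same weeks, that had been kept for 7 days in medium with 10 ng/mL each of TSLP, rmIL-33 and rhIL-2. All mice were females aged 4 to 8 weeks, and the cells were sorted as lineage-negative, ST2+, CD127+, Thy1.2+ and CD45+. One pool stands behind each library, so p-values of the culture comparison measure the spread between 2 pools that differ in week and in the cells they held. The culture cannot be told apart from the cytokines that were given with it.

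Cells enter mitosis when cyclins accumulate and switch on Cdk1, and the same wave of transcription supplies the motors, kinetochore proteins and checkpoint kinases that line up and part the chromosomes. The anaphase-promoting complex then destroys the cyclins, and the cell splits at the midzone of the spindle. In a mixture of cells the RNA of these genes therefore follows both how many cells divide and how much RNA each dividing cell holds. Lung ILC2s divide little at rest and proliferate when IL-2 and IL-33 are given, while early thymocytes pass through a phase of rapid division.

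With a floor of 200 genes per barcode and mitochondrial counts held below 5%, the libraries kept 1601 to 6389 cells, with a median of 4396 to 16090 UMIs (unique molecular identifiers, which count RNA molecules) per cell and 9394957 to 61830293 UMIs in all. Pairs of libraries shared 1 to 8 barcodes, at most 0.375% of the smaller library. The week 3 ta-non-activated library stood apart from its label. Of its cells with at least 2000 UMIs, 900 were thymocyte-like, with more marker genes of early thymocytes or T cells than of ILC2s. Only 498 were ILC2-like, whereas the other libraries held 1556 to 5432 ILC2-like and 9 to 389 thymocyte-like cells. The count of markers does not tell early thymocytes from T cells. The 17 thymocyte or T cell markers summed to 9885 CPM (counts per 1000000 UMIs) in the 900 thymocyte-like cells and the 18 ILC2 markers to 208 CPM. Trbc2, a constant segment of the T-cell receptor, and Dntt, the terminal transferase of early lymphocytes, stood at 2145 and 942 CPM in those that divided, while Il1rl1, which encodes ST2, was at 1.40 CPM. The sort excluded CD3, CD4, CD8α and TCRβ at the surface. In the dividing thymocyte-like cells Cd4 RNA was at 0, while the other 16 thymocyte markers were detected, with Cd3d, Cd3e, Cd3g and Cd8a among them. The culture comparison is given with and without this library. The comparison with thymocyte-like cells has it as its only thymocyte-like side and cannot be given without it.

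Of the 40 genes, 34 have an entry in the set of RefSeq promoters used here (GRCm38.p6). The 6 without one in this set are Ccna2, Tpx2, Aurkb, Kif20a, Spc24 and Incenp. Promoters of G2/M genes are known for the cell cycle genes homology region (CHR), which recruits the DREAM and MuvB complexes, and for CCAAT boxes bound by NF-Y. A CHR, searched as TTTGAA or TTCGAA on both strands from 250 bases before to 50 bases after the start of transcription, was present in 28 of these 34 promoters (82.4%), against 17.3% of 16521 promoters of coding genes. CCAAT on either strand was present in 26 (76.5%), against 38.8%, and in at least 2 copies in 19 (55.9%), against 13.2%. Both motifs occurred in 24 (70.6%), against 7.17%. A match is a run of letters and not a shown binding site. The RefSeq start lay within 100 bases of the gene's start in GENCODE M21 for 27 of the 34. The 110 bases before the start are shown for 3 of the genes most abundant in dividing ILC2s (Top2a, Ube2c and Cdk1), for one gene from either side of the comparison with thymocyte-like cells (Cdc20 and Hmmr), and for Birc5, the most abundant gene with neither motif in this stretch. They read 5′ to 3′ on the strand of the gene, with CHR and CCAAT matches of either strand in capitals.
Top2a, chr11:99024190-99024299, minus strand: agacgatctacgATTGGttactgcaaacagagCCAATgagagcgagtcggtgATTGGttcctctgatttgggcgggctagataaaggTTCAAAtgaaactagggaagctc
Ube2c, chr2:164769819-164769928, plus strand: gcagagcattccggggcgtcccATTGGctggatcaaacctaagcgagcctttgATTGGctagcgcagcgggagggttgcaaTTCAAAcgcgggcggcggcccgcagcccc
Cdk1, chr10:69352913-69353022, minus strand: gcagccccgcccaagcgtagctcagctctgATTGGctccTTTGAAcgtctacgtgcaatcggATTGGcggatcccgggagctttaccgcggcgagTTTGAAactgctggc
Cdc20, chr4:118437344-118437453, minus strand: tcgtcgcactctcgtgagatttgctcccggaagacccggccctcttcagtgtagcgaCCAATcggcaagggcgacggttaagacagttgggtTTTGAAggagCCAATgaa
Hmmr, chr11:40733438-40733547, minus strand: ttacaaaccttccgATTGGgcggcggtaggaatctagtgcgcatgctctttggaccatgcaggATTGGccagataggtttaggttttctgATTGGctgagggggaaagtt
Birc5, chr11:117849127-117849236, plus strand: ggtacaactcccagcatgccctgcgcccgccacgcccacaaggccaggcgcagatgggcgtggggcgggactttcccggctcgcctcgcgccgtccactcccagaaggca
In Top2a, a CHR begins 23 bases before the start and CCAAT matches begin 98, 78 and 58 bases before it. The CHR of Cdc20 begins 18 bases before the start and that of Ube2c 29 bases before it, each downstream of at least 1 CCAAT match. Hmmr has 3 CCAAT matches and no CHR in the stretch shown, though its longer window holds 1 CHR. Mki67, more abundant than Cdk1 and not shown, has a CHR that begins 98 bases before the start and no CCAAT match in this stretch. Most of the genes not shown have no CHR in it.

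Summed over the 40 genes, the level was 259 CPM in the naïve library, 763 and 1927 CPM in the week 2 and week 3 ta-non-activated libraries, and 2748 and 2334 CPM in the week 2 and week 3 ta-activated libraries. The cultured libraries were highest, the naïve library was lowest, and the fresh libraries of tumour-bearing mice lay between them. The week 3 ta-non-activated level was carried by cells that were not ILC2-like. Its ILC2-like cells held 2.77% of the library's member UMIs (501 of 18105), against 77.6% to 91.7% in the other libraries. In ILC2-like cells alone the sums were 233 CPM (naïve), 676 and 313 CPM (ta-non-activated, weeks 2 and 3) and 2622 and 2266 CPM (ta-activated, weeks 2 and 3), so both cultured libraries lay above the fresh ones, by 3.88-fold at week 2 and 7.24-fold at week 3. In summed counts, fewer dividing cells and less RNA per dividing cell cannot be told apart.

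**Figure D1:**
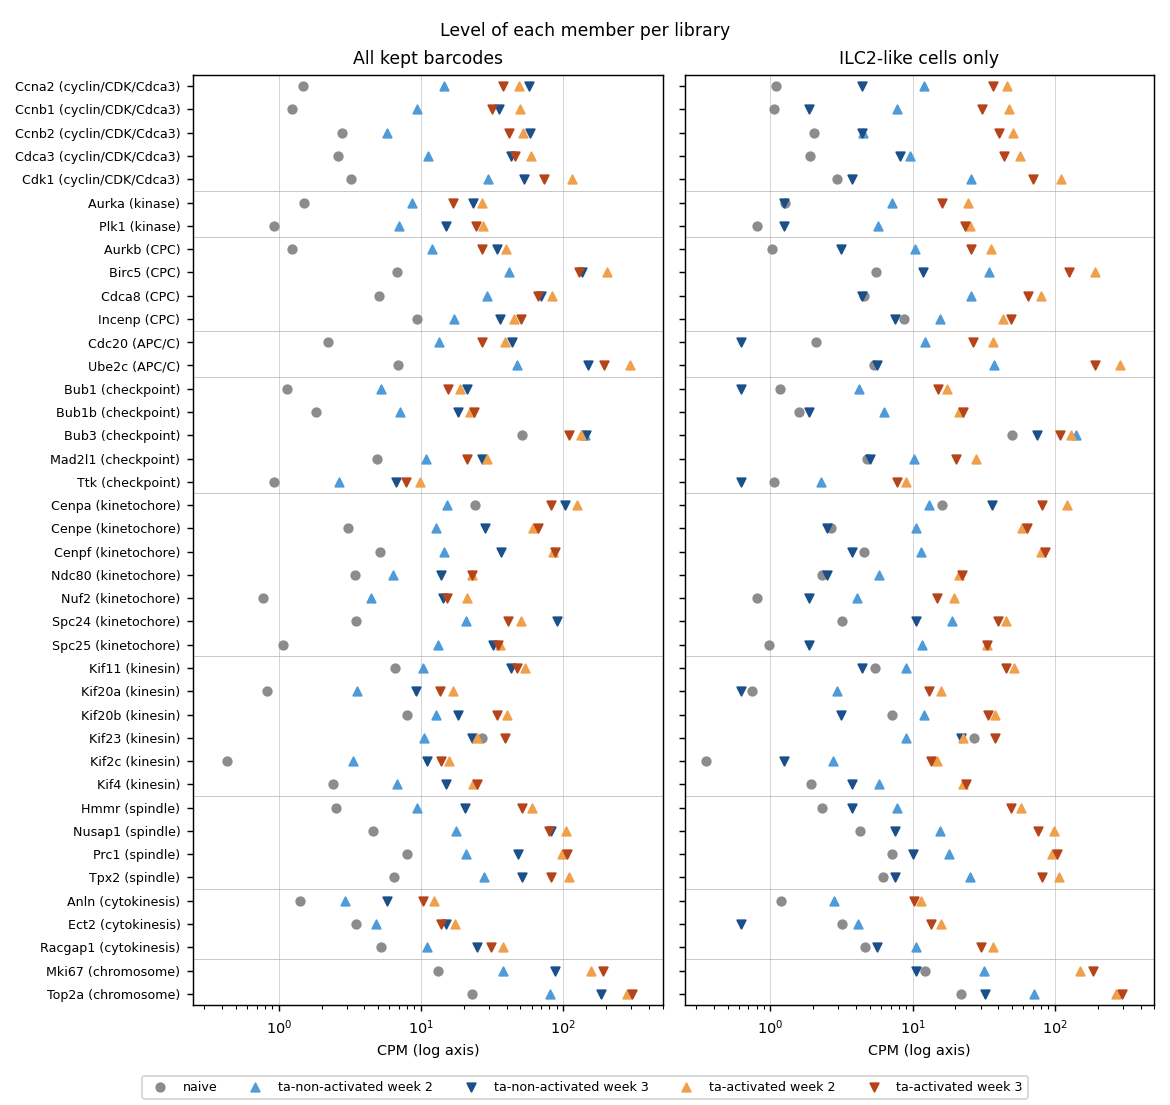
Level of each of the 40 genes in CPM on a log axis, by library, in all kept barcodes (left) and in ILC2-like cells alone (right), with genes grouped by role (CPC, chromosomal passenger complex; APC/C, anaphase-promoting complex and its partners) and 1 point per library. The week 3 ta-non-activated points, which sum to 1927 CPM on the left, move to the fresh and naïve side on the right, where they sum to 313 CPM; Anln, at 0 there, has no point.

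Top2a, the topoisomerase that untangles sister chromatids, stood at 21.9 CPM in naïve ILC2-like cells, 71.5 and 32.5 CPM in ta-non-activated and 268 and 295 CPM in ta-activated ILC2-like cells (week 2, then week 3). Ube2c, the ubiquitin-conjugating enzyme of the anaphase-promoting complex, stood at 5.39, 37.5 and 5.62 CPM in the fresh libraries (naïve, then weeks 2 and 3) and at 286 and 190 CPM after culture. Mki67, which encodes the proliferation marker Ki-67 and coats mitotic chromosomes, went from 12.2, 31.5 and 10.6 CPM to 149 and 184 CPM. For these 3 genes the cultured and fresh ILC2-like cells did not overlap, and week 2 was the highest of the fresh libraries. In ILC2-like cells, 39 of the 40 genes were higher in both ta-activated than in both ta-non-activated libraries, and none was lower in both. Of the 12643 genes tested on whole libraries, 34.7% were higher and 12.5% lower in both.

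Bub3 did not follow the rest. It encodes a checkpoint protein that also works in telomere and splicing complexes outside mitosis, and its level in ILC2-like cells was 50.1 CPM (naïve), 141 and 74.4 CPM (ta-non-activated) and 129 and 108 CPM (ta-activated), with the fresh and cultured libraries overlapping. Bub3 was also present in cells with no G2/M gate gene (defined below), at 48.6 to 136 CPM, and gave 18.1% to 51.7% of the member UMIs there. Cenpa, the histone H3 variant of centromeres, and Kif23, a kinesin of the midbody, were also measured in cells with no gate gene. Cells in S phase, and dividing cells that the gate missed, can still be among these. The summed member level there was 639 CPM in thymocyte-like cells and 139 to 314 CPM in ILC2-like cells. Cenpa reached 97.8 CPM in thymocyte-like cells and 36.2 CPM in week 3 ta-non-activated ILC2-like cells with no gate gene, against 3.02 to 16.5 CPM in the ILC2-like cells of the other libraries. Kif23 was at 22.8 CPM in such naïve cells and between 3.06 and 20.2 CPM in the others, so the naïve value lay only a little above the next. These 3 genes were chosen after their values were seen. By the file headers the naïve matrix was made with a later Cell Ranger (6.0.0) than the other 4 (3.0.2). The processing notes name 3.0.2, and the paper's reporting summary names 6.0.0. The part of such a difference in naïve levels was not tested.

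The share of cells in G2 or M phase was read from 40 other G2/M genes that are not members, such as Smc4, Smc2, Hjurp, Aspm and Kif18a. Cells were thinned to 2000 UMIs each, so that depth did not set the share, and a cell passed the G2/M gate with at least 3 of these genes. Cells that passed are called dividing here, although cells in S phase divide too. In ILC2-like cells 31 of 5432 naïve cells passed (0.571%, exact 95% interval 0.388 to 0.809), 86 of 1556 ta-non-activated cells at week 2 (5.53%, 4.44 to 6.78) and 3 of 498 at week 3 (0.602%, 0.124 to 1.75). After culture 416 of 2479 cells passed at week 2 (16.8%) and 485 of 3551 at week 3 (13.7%). Both cultured shares were above all fresh ones, and week 2 stood above the other fresh libraries beyond counting error, the only error these intervals cover. With 2 libraries against 2, no exact test can reach 0.05. Of the thymocyte-like cells of the week 3 ta-non-activated library, 144 of 900 passed (16.0%, 13.7 to 18.6). The place of the thymocyte-like share depended on the gate genes. Smc4, a condensin subunit, stood at 527 CPM in thymocyte-like cells with no member and no S gate gene detected, against 34.8 to 95.6 CPM in such ILC2-like cells. Without Smc4, Smc2 and Hjurp, a gate tried after these values were seen, the shares were 9.11% (82 of 900) in thymocyte-like cells, 0.350% in naïve, 3.02% (47 of 1556) and 0.402% in ta-non-activated and 13.8% and 11.0% in ta-activated ILC2-like cells (week 2, then week 3).

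A gate on S phase used 39 other genes of DNA replication. Cells that passed it and not the G2/M gate stood in another order. The order of the G2/M shares therefore does not stand for all cells in the cell cycle. Of the week 2 ta-non-activated ILC2-like cells, 410 (26.3%) passed the S gate and not the G2/M gate, above the 8.51% and 7.77% of the cultured cells, and close to the 26.0% of the thymocyte-like cells. The naïve and week 3 ta-non-activated ILC2-like cells were at 1.95% and 3.01%. Cells that passed both gates are left out of these shares, so these are not the full shares of the S gate. The G2/M shares, which bound what is left out, were larger in the cultured and thymocyte-like cells than in the week 2 fresh ILC2-like cells.

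Inside the G2/M gate the 40 genes summed to 4232 CPM in the week 2 ta-non-activated ILC2-like cells, 8466 and 9167 CPM in the ta-activated ones, and 5750 CPM in the thymocyte-like cells. The 31 naïve cells were at 7247 CPM and the 3 week 3 ta-non-activated ILC2-like cells at 7445 CPM. Each of the 40 genes was lower in the week 2 fresh sum than in both cultured sums, as were 50.8% of 11402 genes. The gate did not select equally in these populations. Of the gated cells, 26.7% of the week 2 fresh ILC2-like and 23.6% of the thymocyte-like cells had no more than 1 member detected among 2000 UMIs, against 1.92% and 3.92% of the cultured ones. Gating on at least 6 genes, tried after these values were seen, gave 7520 CPM in the fresh cells, 10353 and 11103 CPM in the cultured and 8806 CPM in the thymocyte-like cells. There 37 of 40 genes were lower in the fresh sum than in both cultured sums. The share of all genes so placed was taken only in the gate with at least 3 genes, so this count has no such share beside it. Gated cells had median UMI counts of 28022 (week 2 fresh), 24893 and 21281 (cultured) and 14385 (thymocyte-like), well above the medians of their libraries, and doublets were not removed.

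**Figure D2:**
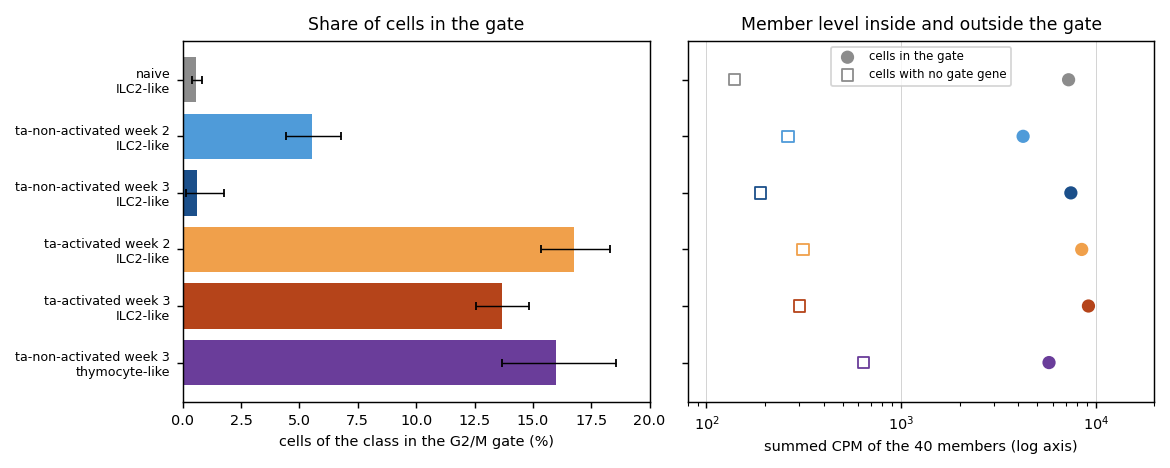
Left, share of each cell class in the G2/M gate (percent, bars from 0, with exact 95% binomial intervals); right, summed CPM of the 40 genes on a log axis in gated cells (filled circles) and in cells with no gate gene (open squares). At 3 gate genes the thymocyte-like share (16.0%) lies between the cultured ILC2-like ones (16.8% and 13.7%), where without Smc4, Smc2 and Hjurp it is 9.11% against 13.8% and 11.0%, and the member level of gated cells is 4232 CPM in the week 2 fresh cells and 9167 CPM in the week 3 cultured cells.

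Among dividing ILC2-like cells the 10 most abundant genes were Top2a, Ube2c, Mki67, Birc5, Cdk1, Prc1, Nusap1, Cenpa, Cenpf and Tpx2, and the first 5 gave 38.8% of the member level. The counts are of 3′ ends and were not divided by transcript length. Top2a stood at 460 CPM in the week 2 ta-non-activated gated cells and at 851 and 1136 CPM in the ta-activated ones. Birc5, the survivin subunit of the chromosomal passenger complex, stood at 316, 636 and 545 CPM in the same order. Cdk1, the kinase that drives entry into mitosis, stood at 209, 369 and 301 CPM. The 5 least abundant were Ttk, a checkpoint kinase, Anln, which organises the contractile ring, Ect2, which activates RhoA there, and the kinesins Kif20a and Kif2c, with 14.8 to 60.6 CPM. None of the 40 lay below 5 CPM in any of these 3 sums.

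The first comparison asked whether the genes differed between the 2 ta-activated and the 2 ta-non-activated libraries as a whole. No member was called, and neither was any other gene (0.0% of 12643 genes) by edgeR's quasi-likelihood test at an adjusted p of 0.05. The 2 ta-non-activated libraries held 9 (week 2) and 900 (week 3) thymocyte-like cells. This difference is part of the spread behind the p-values, so the absence of calls cannot be read as an absence of change. At an unadjusted p under 0.05 there were 11 of 40 members and 16.8% of all genes. DESeq2 called 1041 genes (8.23%, and 4.56% in the higher direction) and 3 members, all higher. The members leaned upwards all the same, with 38 of 40 higher after culture and a median log2 fold change of 0.89, against -0.02 over all genes. The exceptions were Bub3 (-0.34) and Spc24 (-0.30), of which Spc24 turned to 0.91 without the week 3 ta-non-activated library and to 1.29 in ILC2-like cells alone, where Bub3 was at -0.07.

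Since none was called, the 10 genes with the largest change are given. Hmmr, which encodes a spindle protein that binds hyaluronan and microtubules (chr11:40701395-40733422), stood at 9.39 and 20.2 CPM in the ta-non-activated libraries and at 59.8 and 51.4 CPM in the ta-activated libraries (week 2, then week 3). All 4 values were in order of the groups, and its log2 fold change was 1.86 ± 0.43 (SE, adjusted p = 0.243 by edgeR). Cenpf, a large kinetochore protein, stood at 14.6 and 36.5 CPM against 84.1 and 87.3 CPM, with a log2 fold change of 1.70 ± 0.46 (adjusted p = 0.252, edgeR). Cenpe, the kinetochore motor that brings chromosomes to the spindle equator, stood at 12.7 and 28.0 CPM against 61.3 and 66.6 CPM (1.60 ± 0.42, adjusted p = 0.252, edgeR). These are the 3 members that DESeq2 called, with adjusted p-values of 0.0143, 0.0407 and 0.0407. Prc1, which bundles the microtubules of the midzone, and Mki67 had log2 fold changes of 1.52 and 1.42. Anln was at 1.34, Ube2c at 1.28, Tpx2, which activates Aurora A on the spindle, at 1.22, Kif20a at 1.21 and Plk1, the polo kinase, at 1.19, with adjusted p-values of 0.254 to 0.353 over these 7 genes by edgeR. Without the week 3 ta-non-activated library edgeR called 513 genes (3.85%, and 1.75% in the higher direction), among them 7 members, all higher (Hmmr, Cenpf, Cenpe, Prc1, Mki67, Ccnb2 and Kif11), where the remaining fresh library was assumed to vary like the cultured pair. DESeq2 without the week 3 one, a fit added after the values were seen, called 2586 genes (19.4%, and 9.14% in the higher direction) and 35 members, all higher. Without the week 2 one edgeR called 1646 of 13604 genes (12.1%) and no member.

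Whole libraries of the same week gave a median log2 ratio of 1.93 at week 2, with 39 of 40 genes higher after culture, and of 0.27 at week 3, with 25 higher and 15 lower. In these libraries 25 members were higher in both cultured than in both fresh ones and 1 was lower, against 32.4% and 20.6% of all genes. Spc24, a subunit of the Ndc80 kinetochore complex, was highest in the fresh week 3 library (90.9 CPM), above the other 4 libraries (3.52 to 50.1 CPM). Beside these values stand the 900 thymocyte-like cells of that library. In ILC2-like cells alone, the week 3 ratio was positive for 39 of the 39 genes with a value, though 13 of the 40 genes had no more than 3 UMIs in the fresh cells. In those cells 32 of the 40 members had an unadjusted p under 0.05, against 12.6% of all genes, with a median log2 fold change of 2.19. None of the 12327 genes passed at an adjusted p of 0.05 in edgeR, and the lowest member value was 0.196. With the week as a replicate block in ILC2-like cells, an addition made after the values were seen, edgeR called 70 of 12327 genes and no member. The lowest adjusted p of a member in this edgeR fit was 0.0818.

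**Figure D3:**
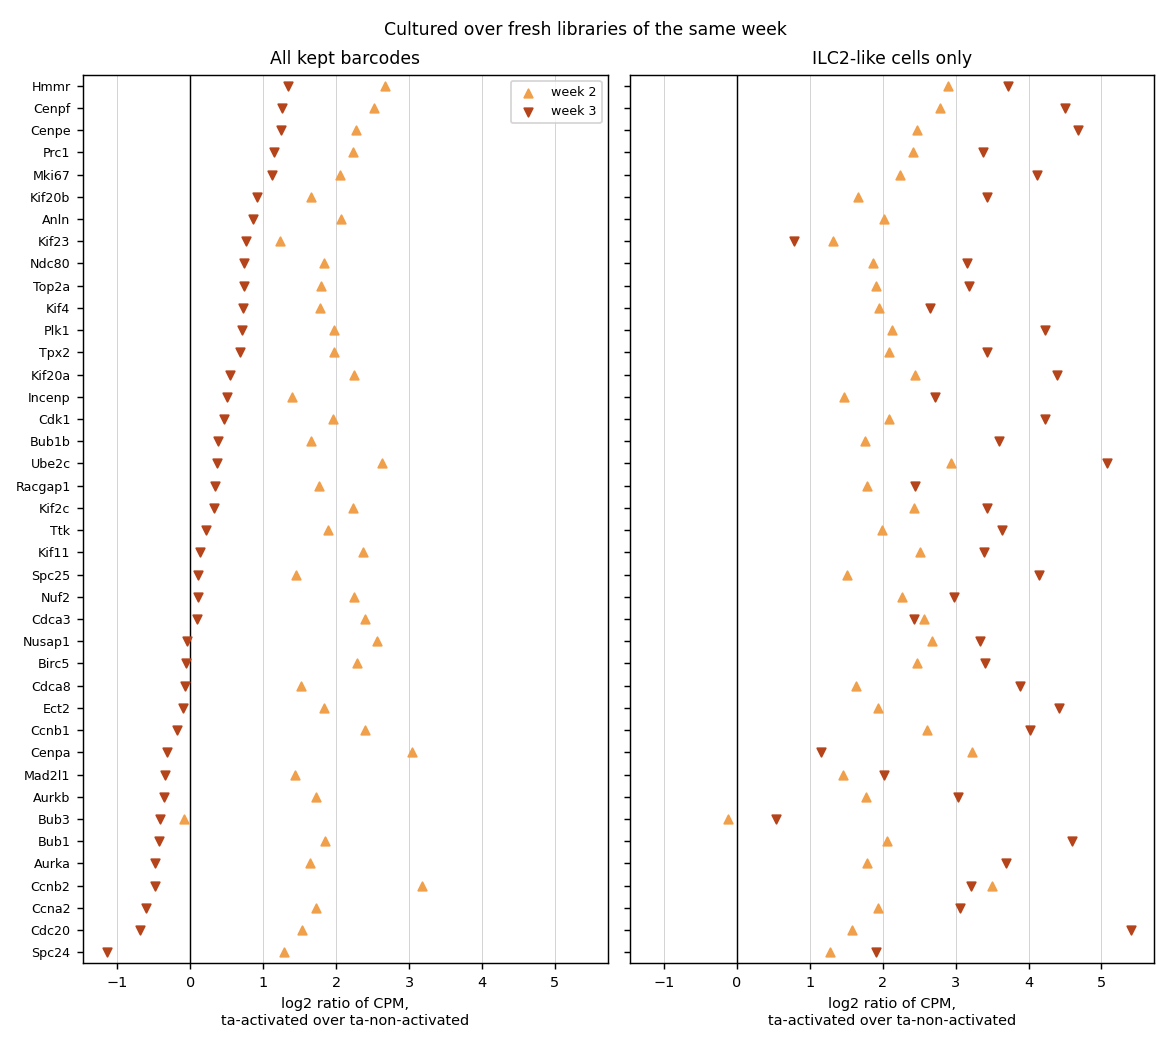
Log2 ratio of CPM, ta-activated over ta-non-activated, for each gene at week 2 (upward triangles) and week 3 (downward triangles), in whole libraries (left) and in ILC2-like cells alone (right), with a line at 0. Whole libraries give 39 of 40 positive ratios at week 2 and 25 at week 3; in ILC2-like cells the week 3 ratios are positive for the 39 genes that have one, and Anln has no week 3 ratio because its fresh count was 0.

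The second comparison asked which genes differ between dividing ILC2-like cells (86 fresh cells of week 2, 416 and 485 cultured cells) and the 144 dividing thymocyte-like cells of the week 3 ta-non-activated library. The thymocyte-like side is 1 sum, assumed to vary like the 3 ILC2-like sums, and library and cell class cannot be told apart. Those 3 sums mix fresh and cultured cells, and each member was lower in the fresh sum than in both cultured ones. This difference is part of the spread behind the p-values, so an absence of member calls cannot be read as likeness of the cell classes. edgeR called 204 of 11402 genes (1.79%), 122 higher (1.07%) and 82 lower (0.719%) in the thymocyte-like cells, and no member; no member had an unadjusted p under 0.05, against 21.8% of all genes. DESeq2 called 1106 of the 11402 genes and no member. In the edgeR fit 11 members were higher and 29 lower, with a median log2 fold change of -0.27 against -0.18 over all genes. Each gene as a share of all member UMIs split them into 20 higher and 20 lower, and 9 genes changed sign between both scales.

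Again the 10 genes with the largest change are given. Cenpe stood at 84.6 CPM in the fresh ILC2-like sum, at 205 and 276 CPM in the cultured sums (week 2, then week 3) and at 77.9 CPM in the thymocyte-like sum, which was the lowest of the 4 (log2 fold change -1.22 ± 0.71, SE, adjusted p = 0.373 by edgeR). Hmmr was at 78.6, 203 and 222 CPM against 73.2 CPM (-1.15 ± 0.67, adjusted p = 0.376, edgeR). Prc1 was at 142, 308 and 426 CPM against 129 CPM (-1.13 ± 0.66, adjusted p = 0.376, edgeR). In all 3 genes the thymocyte-like value lay near the fresh ILC2-like one and well below the cultured pair.

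Cenpf (-1.11), Kif20b (-1.10), a kinesin of the midzone and midbody, Kif23 (-0.93), Mki67 (-0.85), Anln (-0.78) and Kif20a (-0.68) were the other genes with larger negative values. Spc24 (chr9:21755442-21760303) was the only one of the 10 with a positive value. It stood at 116 CPM in fresh and 144 and 169 CPM in cultured ILC2-like cells and at 252 CPM in thymocyte-like cells, above all 3 (0.85 ± 0.36, adjusted p = 0.251, edgeR). Without the week 2 fresh sum edgeR called 1994 genes (17.0%, and 10.2% in the lower direction) and 3 members, each lower in the thymocyte-like cells: Cenpe (-1.54, adjusted p = 0.0486), Hmmr (-1.46, adjusted p = 0.0413) and Kif20b (-1.33, adjusted p = 0.0474). These 3 calls were therefore against cultured cells alone.

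In CPM, 6 members were above all 3 ILC2-like sums and 9 below, out of 40, where 29.2% and 38.8% of all genes tested were so placed. As shares of the member UMIs, a scale on which the summed level has no part for members, 18 members were above all 3 and 16 below. With their UMIs divided in the same way, 25.5% and 30.8% of all genes were so placed. For genes that are no members this scale still carries the summed member level, here and in the forms of the gate below. Their percentages are therefore not fully alike to the member counts. Since the shares of the members sum to a fixed whole, some must be lower where others are higher. Cdc20, the activator of the anaphase-promoting complex, made up 1.37% of the member UMIs of fresh and 1.44% and 1.26% of those of cultured ILC2-like cells, and 2.34% in thymocyte-like cells. Ccna2, cyclin A2, made up 2.45%, 1.90% and 1.81% against 3.50%, and Bub1, a checkpoint kinase, 0.811%, 0.679% and 0.727% against 1.23%. Ccnb2, cyclin B2, made up 0.971%, 1.85% and 1.81% against 2.36%. At the lower end, Cenpe made up 2.00%, 2.42% and 3.01% of the member UMIs against 1.35%, Hmmr 1.86%, 2.40% and 2.42% against 1.27%, and Kif20b 1.49%, 1.46% and 1.47% against 0.843%. Cdc20, Ccna2, Bub1 and Ccnb2 were chosen after their values were seen. Ccna2 and Cdc20 each overlap a gene of the opposite strand in GENCODE M21, as do 8 members in all.

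The position outside the ILC2-like range was kept in all 8 forms of the gate (2, 3, 4 or 6 genes, the S gate added, 1000 UMIs, a mitochondrial limit of 10%, and a gate without Smc4, Smc2 and Hjurp) by 10 genes above (Bub1, Ccna2, Ccnb1, Ccnb2, Cdc20, Ect2, Kif11, Nusap1, Spc24 and Ttk) and 11 below (Anln, Cenpe, Cenpf, Hmmr, Kif20b, Kif23, Mki67, Ndc80, Plk1, Prc1 and Tpx2), out of 40, where 8.52% and 16.2% of all genes tested did so. These forms draw on overlapping cells of the same 4 libraries. Sums by role were made only in the gate with at least 3 genes. There the 5 checkpoint genes made up 8.03% of the member UMIs of thymocyte-like cells, against 5.16% to 7.10% in ILC2-like cells. By itself Bub1b lay within its ILC2-like range. Bub3 alone made up 4.23%, against 2.17% to 3.96%, and lay above that range in 5 of the 8 forms. Cdk1, its cyclins and Cdca3, a regulator of mitotic entry, made up 13.4% against 10.4% to 12.2%, though Cdk1 alone was lower, at 3.19% against 3.28% to 4.93%. The 4 spindle genes made up 11.4% against 12.5% to 14.0%, the 6 kinesins 6.20% against 6.67% to 7.48%, and Mki67 with Top2a 14.9% against 15.9% to 20.9%. Among the spindle genes Nusap1 went the other way, at 5.18% against 3.53% to 4.13%. So did Kif11 among the kinesins, at 2.63% against 2.08% to 2.21%, while Kif2c lay within its range. The 7 kinetochore genes, with Spc24 and Cenpe at opposite ends, made up 14.6% against 13.4% to 16.1%, within the range of the ILC2-like sums. Also within it were the anaphase-promoting complex and its partners (11.5% against 9.82% to 12.5%), the cytokinesis genes (2.47% against 2.43% to 2.55%) and the kinases Aurka and Plk1 (2.12% against 1.89% to 2.44%), while the chromosomal passenger genes made up 15.5% against 12.1% to 15.3%. These 4 populations differed in depth and in the share of gated cells with no more than 1 member, as given above, and in the S-phase genes, which summed to 5823 CPM in the gated thymocyte-like cells, 4629 CPM in the week 2 fresh ones and 3646 and 3993 CPM in the cultured ones. The part of these differences in the make-up was not tested.

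**Figure D4:**
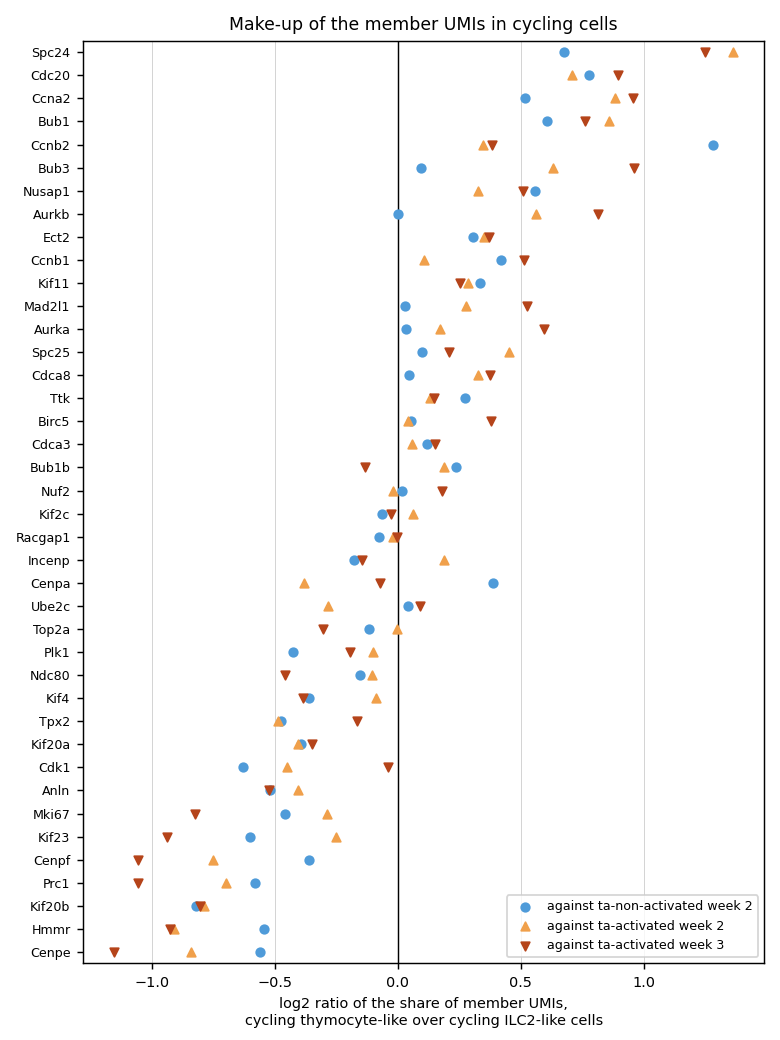
Log2 ratio of each gene's share of the member UMIs in dividing thymocyte-like cells over its share in the dividing ILC2-like cells of 3 libraries, 1 point per library, with genes ordered by the ratio to the mean of the 3 and a line at 0. All 3 points lie right of 0 for 18 genes, led by Spc24, and left of 0 for 16 genes, with Cenpe lowest.

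A list of 63 other genes of the kinetochore, the spindle, mitotic entry, chromosome condensation and the DREAM and MuvB complexes was read beside the members. None of the 63 was called by edgeR in the main fit of either comparison, against 0.0% and 1.79% of all genes (culture, then thymocyte-like cells). An unadjusted p under 0.05 by edgeR was found for 4 and 8 of them, against 16.8% and 21.8% of all genes. The median log2 fold changes of the 63 were -0.01 and -0.10, with 31 and 30 genes higher. In the culture comparison without the week 3 ta-non-activated library, which leaves 1 fresh library, the median of the 63 was 0.26, against 0.12 over all genes. In ILC2-like cells alone none of the 63 was called by edgeR, and neither was any other gene. There 10 of the 63 had an unadjusted p under 0.05 by edgeR, against 12.6% of all genes. Their median was 0.47, against -0.01 over all genes. In ILC2-like cells this list summed to 1231 CPM (naïve), 2440 and 1056 CPM (ta-non-activated, weeks 2 and 3) and 2546 and 2308 CPM (ta-activated), so that the cultured and fresh values lay close at week 2 and apart at week 3.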

How the data were processed

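Per the file headers and the labels, the authors made the count matrices with Cell Ranger (3.0.2, and 6.0.0 in the naïve header), and the deposited values are raw UMI counts per gene and barcode from 10x Genomics 3′ libraries. Their processing notes name GRCm38 and Seurat 3. The members and all gene lists used here were chosen with earlier results of these data known.

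Kept barcodes had 200 or more genes and a mitochondrial share below 5%, and doublets were not removed. Cells with at least 2000 UMIs were thinned to 2000 (seed 1). A cell was ILC2-like or thymocyte-like with at least 3 markers of that list and more than of the other, and in the G2/M or S gate with at least 3 of 40 or 39 genes that are no members. Unthinned counts were summed per library, or per library and class. CPM are UMIs per 1000000 UMIs of a sum, with exact Poisson intervals, and shares have exact 95% binomial intervals.

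Sums were tested with edgeR 4.0.16 (R 4.3.3; filterByExpr, TMM, quasi-likelihood F test), ta-activated against ta-non-activated and gated thymocyte-like against gated ILC2-like, with Benjamini-Hochberg adjustment over all genes tested and a threshold of 0.05; the SE is the fold change over the root of F. Both fits were checked on simulated counts of a fixed dispersion in which 200 genes had been changed by 3 or 5 log2 units. These changes were larger than those of the members in the main fits, so the check does not cover changes of that size. With 1 library, the naïve group was not tested. Genes were named by rule: each member past the threshold, otherwise the 10 with the largest change, and for levels the 10 highest, the 5 lowest and any below 5 CPM. Others were named after their values were seen. Alternatives were DESeq2 1.42.0, a replicate block for the week, no filter on low counts, other cell filters and gates, shares of member UMIs and each library left out. Positions come from GENCODE M21 and promoters from RefSeq. Python 3.11.15 with numpy 2.4.6, scipy 1.17.1, pandas 2.3.3 and matplotlib 3.10.9 was used.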

Additional observations from a re-analysis of the deposited data

Results flagged for a closer look

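In whole libraries, 14 of the 40 genes were higher in the ta-activated than in the ta-non-activated library at week 2 and lower at week 3. With 1 library per week and treatment the difference between weeks was not tested. The week 3 log2 ratios were -1.14 for Spc24, -0.69 for Cdc20, -0.61 for Ccna2, -0.49 for Ccnb2, -0.48 for Aurka, -0.43 for Bub1, -0.35 for Aurkb, -0.34 for Mad2l1, -0.32 for Cenpa, -0.18 for Ccnb1, -0.10 for Ect2, -0.075 for Cdca8, -0.062 for Birc5 and -0.041 for Nusap1. In ILC2-like cells alone none of these 14 turned sign between weeks, and Bub3 did, with a week 3 log2 ratio of 0.54 after a negative one at week 2. The whole week 3 ta-non-activated library held 900 thymocyte-like cells beside 498 ILC2-like cells.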

How the results depend on the processing

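In the culture comparison, where no member was called, DESeq2 called 3 members, or 35 without the fresh week 3 library (added after seeing the data), and leaving out each library in turn gave 0 to 7. The 7 came when the fresh week 3 library was left out. The number of genes called rose from 0 to 1041 with DESeq2 and, among the ta-non-activated libraries, to 1646 without week 2 and 513 without week 3. The replicate block for the week called 0 members and 0 genes. Week 3 minus week 2 differences of the whole ta-activated and ta-non-activated libraries had a correlation of -0.05 over genes. The fresh week 3 library held mostly thymocyte-like cells, so this correlation cannot tell whether the weeks were paired. With the block in ILC2-like cells alone, chosen after seeing the data, 0 members and 70 genes were called. In the thymocyte-like comparison the leave-out fits called 0 to 3 members, the 3 without the week 2 ta-non-activated sum. Genes called moved from 204 to 1106 with DESeq2, 658 without the filter on low counts, 400 with 2 gate genes, 122 with 4, and 1994, 396 and 334 without the week 2 fresh, week 2 cultured and week 3 cultured sums. The gates with 6 genes and without Smc4, Smc2 and Hjurp were chosen after seeing the data. Of the genes named with a fold change, 3 turned direction, all in the culture comparison. Spc24 went from -0.30 to 1.29 in ILC2-like cells, 1.37 there with the block and 0.87 with DESeq2 without week 3 fresh, and ranged from -0.92 to 0.91 with each library left out. Bub3 went to 0.0032 with the block in ILC2-like cells, and Ccnb2 ranged from -0.23 to 2.77 with each library left out, lowest without week 2 fresh. The gate share moved with 2 genes to 3.001% (naïve), 11.6% (week 2 fresh), 23.0% and 18.2% (cultured) and 38.0% (thymocyte-like), with 4 genes to 0.331%, 3.41%, 14.1%, 11.5% and 9.67%, with 6 to 0.258%, 1.35%, 8.67%, 8.36% and 4.11%, without Smc4, Smc2 and Hjurp to 0.350%, 3.02%, 13.8%, 11.0% and 9.11%, and at 1000 UMIs to 0.247%, 2.04%, 9.06%, 8.66% and 7.42% in the same order. The summed member level moved to 233 CPM (naïve) and 313 CPM (week 3 ta-non-activated) in ILC2-like cells alone, and in the week 2 ta-activated library to 2450 CPM with a mitochondrial limit of 10% and 2436 CPM with all barcodes. The causes were not tested beyond what each setting changes by construction.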
